A study of Homo sapiens with 8 samples.

Results

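Guides against NAT10 were compared with a control in 143B cells, an established human osteosarcoma line. A gene entered the comparison if 2 or more of its 4 values in 143B reached 1 FPKM. FPKM counts sequenced fragments relative to the length of the transcript and to the size of the library, so it can be compared between genes of different length. Of the 13703 genes listed for either line of the study, 12700 were listed for 143B and 11419 passed this filter. The 1281 listed genes below it reached at most 4.33 FPKM in any library.

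The series holds 8 libraries of polyadenylated RNA, 4 from 143B and 4 from HOS, the osteosarcoma line from which 143B was derived by transformation with a viral Ki-ras oncogene. 143B therefore carries an activated RAS gene in every library described here. Libraries were labelled NC (control) or sgNAT10, with 2 of each per line, and the design text calls the second kind knockout cells. Whether a library came from its own culture, a clone, a pool of cells or its own guide was not given in the sources used here. The p-values therefore cover only the spread between 2 libraries of a label, and that spread may be technical. No treatment or time point is given in the labels. Read depth is unknown, since the deposited values are FPKM without counts.

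NAT10 is a nucleolar acetyltransferase that uses acetyl-coenzyme A and ATP to place N4-acetylcytidine on RNA. Its best known substrates are the small subunit ribosomal RNA and the serine and leucine transfer RNAs, for which it needs the adaptor protein THUMPD1, and the mark has also been described on messenger RNA. The small subunit sites lie in the decoding region, which ties the enzyme to ribosome assembly and translation. In osteosarcoma, a bone tumour of cells that lay down osteoid, the processes most often studied are matrix production and breakdown, adhesion, growth factor signalling and energy metabolism, and the gene groups below follow these roles.

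The 4 libraries separated by label. Pearson's r of log2(FPKM + 1) was 0.979 between the NC libraries, 0.986 between the sgNAT10 libraries and 0.888 to 0.910 across labels. Summed FPKM ran from 594407 to 653693 in NC and from 775277 to 798137 in sgNAT10, and the 10 most abundant genes took 9.43% to 11.3% of it in NC and 15.1% to 16.0% in sgNAT10. The median FPKM was 4.92 and 7.21 in the NC libraries and 4.22 and 5.13 in the sgNAT10 libraries, so libraries of 1 label differed in it too. Of 10 mesenchymal and osteosarcoma markers 8 were listed, with a summed level of 1501 and 1941 FPKM in NC and 586 and 880 FPKM in sgNAT10, most of it VIM. Of the other cell types, 0 of 5 endothelial and 0 of 4 muscle markers were listed. The 2 listed of 6 epithelial markers (EPCAM and CLDN4) summed to between 2.41 and 3.56 FPKM in every library. The 3 listed of 7 blood markers, mainly the lysosomal protein CD68, summed to 128 and 105 FPKM in NC and 51.1 and 46.2 FPKM in sgNAT10. The 2 listed of 4 adipose markers summed to 0.56 and 0.68 FPKM in NC and 1.62 and 4.59 FPKM in sgNAT10, and the 2 of 5 neural markers, mainly the tubulin TUBB3, to between 125 and 179 FPKM. CD3E and PTPRC, which define blood cells, had no value among the listed genes. The part of these marker levels in the results was not tested, and in bulk RNA fewer cells of a kind and less RNA per cell cannot be told apart.

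NAT10 RNA was lower in the sgNAT10 libraries of 143B, without being lost. The gene lies on the plus strand of chromosome 11, from 34105602 to 34147670 in GRCh38. It stood at 16.06 and 19.95 FPKM in NC and at 9.05 and 7.19 FPKM in sgNAT10, so that both sgNAT10 values lay below both NC values. The change was -1.06 on the log2(FPKM + 1) scale used throughout (SE 0.31, adjusted p = 0.026; limma). That call was lost under median-ratio scaling (adjusted p = 0.060), without NC replicate 2 (0.064), without sgNAT10 replicate 1 (0.11) and without sgNAT10 replicate 2 (0.22), and the change was -0.65 after correction for length and GC content (adjusted p = 0.014). THUMPD1, its adaptor on transfer RNA, went from 3.02 and 6.19 FPKM to 12.46 and 14.83 FPKM, a rise of 1.44 (SE 0.38, adjusted p = 0.017) that was called without either NC library but not without either sgNAT10 library or with libraries rescaled to a common sum. An RNA level does not show how much protein was left.

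More genes fell than rose. Of the 11419 genes, 1473 were called higher in sgNAT10 (12.9%) and 2897 lower (25.4%) at an adjusted p under 0.05, 4370 in all (38.3%). By at least 2-fold, 1096 were called higher (9.60%) and 2330 lower (20.4%), and by at least 4-fold 140 and 326. The sgNAT10 libraries lay both above both NC libraries for 2732 genes (23.9%) and both below for 4891 (42.8%), called genes included. The median change over all genes was -0.25, so the balance of rises and falls depended on how the libraries were scaled. Under median-ratio scaling 2361 genes rose and 2541 fell, under quantile normalization 2797 and 2847, and with each library rescaled to the same sum 896 and 3736. Without sgNAT10 replicate 1 the calls numbered 2360 and without sgNAT10 replicate 2 they numbered 1995, and 1606 genes (600 higher, 1006 lower) were called with all 4 libraries and again with each of the 4 left out. Single genes named below as having risen or fallen were called in each of those fits unless stated otherwise. Counts of list and family members that rose or fell are calls with all 4 libraries. Members that passed the filter at 1 FPKM only through 1 label are included, so these counts are a description. The counts are to be read beside the 12.9% higher and 25.4% lower over all genes, which include such genes too.

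**Figure D1:**
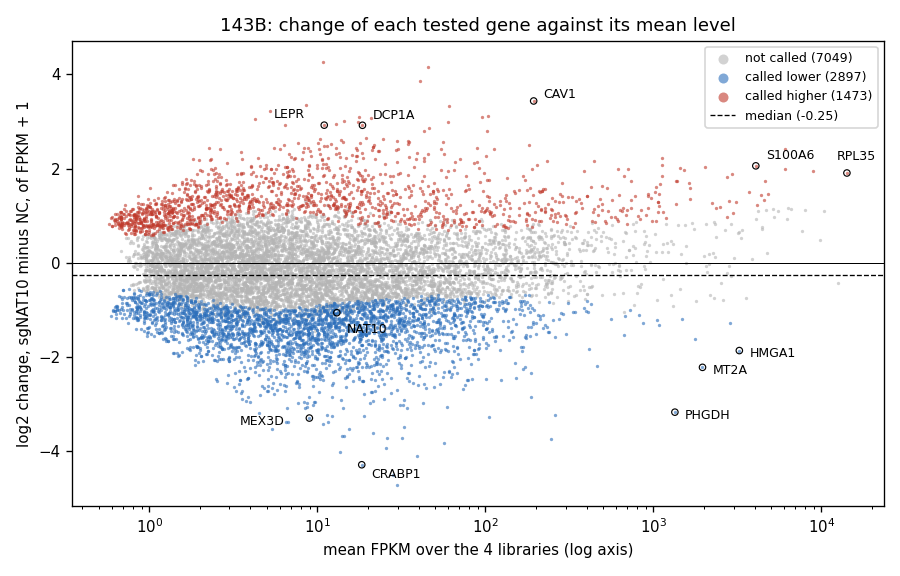
Change of each of the 11419 tested genes (log2 of FPKM + 1, sgNAT10 minus NC) against its mean FPKM over the 4 libraries of 143B on a log axis. Blue points were called lower (2897), red points higher (1473) and grey points not called (7049); the dashed line is the median of all genes, -0.25, and circled genes are described in the text.

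A few genes went from clearly expressed to nearly silent, or the reverse. At or above 10 FPKM in both NC libraries and below 1 FPKM in both sgNAT10 libraries were 6 genes, and 3 genes made the opposite change. CRABP1, a binding protein for retinoic acid, stood at 38.28 and 33.46 FPKM in NC and at 0.86 and 0.91 FPKM in sgNAT10 (log2 -4.29). MEX3D, an RNA-binding protein of AU-rich transcripts, stood at 14.42 and 19.79 FPKM in NC and at 0.90 and 0.75 FPKM in sgNAT10 (log2 -3.30). The other 4 that fell were the guidance ligand NTN1, netrin-1 (log2 -2.73), the adhesion receptor ICAM1 (log2 -3.08), the neuronal protein CEND1 (log2 -3.09) and the small membrane protein SMIM3 (log2 -3.39). All 4 began between 10.96 and 18.37 FPKM in NC and ended between 0.18 and 0.97 FPKM in sgNAT10. NRG4, a ligand of the ERBB4 receptor, took the opposite course, from 0.89 and 0.57 FPKM in NC to 11.13 and 12.98 FPKM in sgNAT10 (log2 2.92). EIF4EBP3, which binds the cap-binding protein eIF4E, was listed at 0.46 and 0 FPKM in NC and at 10.31 and 10.16 FPKM in sgNAT10, and the uncharacterised LOC105369205 at 0.16 and 0.16 FPKM and 20.74 and 21.95 FPKM. These 9 genes were picked by these values, and each passed the filter at 1 FPKM only through the label in which it is high, so their values are a description with no test. Values of genes named below that passed only through 1 label are a description too, also where they are counted on a list. Through NC alone passed, among others, HSPG2, LAMA5, ITGB3, JUP, NOTCH3, DLL1, TCF7L1, MED30, BMF and GABARAPL1. KITLG passed through sgNAT10 alone.

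Other genes rose by several fold. LEPR, the leptin receptor, stood at 1.57 and 2.04 FPKM in NC and at 19.81 and 20.55 FPKM in sgNAT10 (log2 2.92, SE 0.33, adjusted p = 0.0011). DCP1A, an activator of the enzyme that removes the cap of messenger RNA, stood at 3.10 and 4.08 FPKM in NC and at 32.85 and 34.20 FPKM in sgNAT10 (log2 2.92, SE 0.30, adjusted p = 0.00098). HTD2, a mitochondrial fatty acid synthesis enzyme, rose by 2.95, FAM217B by 2.99 and LOC112267959 by 2.98. In each of these 5 genes both sgNAT10 libraries lay above both NC libraries, which was a condition for being picked among the largest rises. Among the largest falls were the homeobox genes HOXB8 (log2 -3.94) and HOXB2, which specify position along the body axis. HOXB2 stood at 53.18 and 68.32 FPKM in NC and at 4.06 and 4.99 FPKM in sgNAT10 (log2 -3.48, SE 0.29, adjusted p = 0.00076).

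Counted in FPKM rather than in folds, the largest gains were mostly ribosomal protein genes and the largest losses were mixed. Of the 12 largest gains among called genes 11 were ribosomal protein genes. RPL35 stood at 7649.5 and 4579 FPKM in NC and at 20801 and 23661 FPKM in sgNAT10 (log2 1.91, SE 0.47, adjusted p = 0.014). Of these 11, 2 were called with each library left out, RPL23 among them. RPL35 was not called without either sgNAT10 library, and the levels of such short genes can also take in reads of their processed pseudogenes. The other gain was S100A6, a calcium-binding protein, from 1909 and 1289 FPKM in NC to 6370.5 and 6702 FPKM in sgNAT10 (log2 2.06, SE 0.36, adjusted p = 0.0037). The largest loss was HMGA1, a chromatin protein that binds AT-rich DNA, at 5502 and 4659 FPKM in NC and 1639.6 and 1180.0 FPKM in sgNAT10 (log2 -1.86, SE 0.35, adjusted p = 0.0045), a call lost without sgNAT10 replicate 2 (adjusted p = 0.18). MT2A, a metallothionein that holds zinc and copper, stood at 3292 and 3155 FPKM in NC and at 765 and 625 FPKM in sgNAT10 (log2 -2.22, SE 0.30, adjusted p = 0.0017). A ribosomal protein gene, RPLP0, was among the 12 largest losses too (log2 -1.28, adjusted p = 0.015), a call lost under median-ratio scaling and without either sgNAT10 library. Also among these losses were FSCN1, the actin-bundling protein fascin (log2 -2.20), RHOC, a small GTPase of the cell cortex (log2 -1.54), and the elongation factor EEF2 (log2 -1.62, a call lost under median-ratio scaling and also without sgNAT10 replicate 2).

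**Figure D2:**
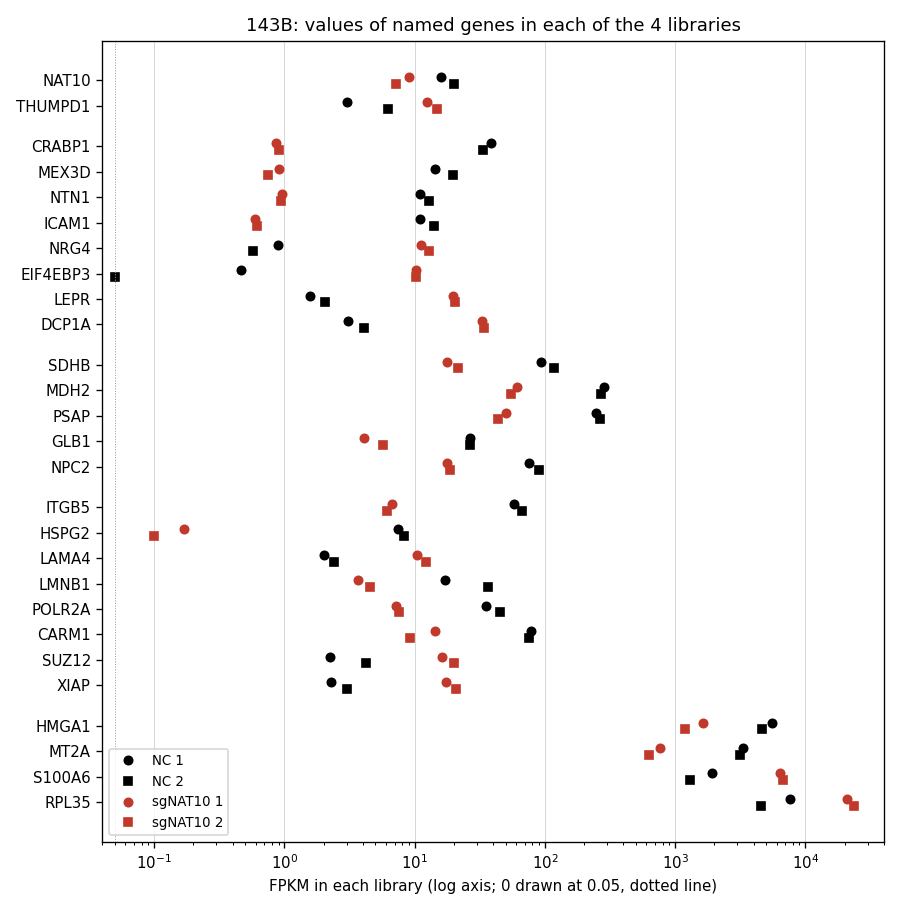
FPKM of genes named in the text in each of the 4 libraries of 143B, on a log axis. Black symbols are NC libraries and red symbols sgNAT10 libraries, with a circle for replicate 1 and a square for replicate 2; CRABP1, MEX3D, NTN1 and ICAM1 lie below 1 FPKM in both sgNAT10 libraries, and NRG4 and EIF4EBP3 lie below 1 FPKM in both NC libraries.

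The direction of change followed the GC content of the transcript. In the quintile of genes with the lowest GC content (median 38.8%), 18.6% were called higher and 4.78% lower, with a median change of 0.19. In the quintile with the highest GC content (median 62.2%), 6.20% were called higher and 47.9% lower, with a median change of -0.78. The 3 quintiles between were in order, with medians of 0.06, -0.30 and -0.64. Differences between libraries of the same label also moved with GC content, from -0.72 to 0.25 for NC replicate 1 minus replicate 2, and from -0.45 to 0.15 for sgNAT10 replicate 1 minus replicate 2. Genes with 18 or more exons had a median change of -0.42, and those with 1 to 5 exons -0.17. Across quintiles by transcript length the medians ran from -0.40 to -0.12 without such an order. The part of GC content in the results was not tested. After length and GC content were fitted out of each library, 2776 genes rose and 3293 fell of 11287, and the median change was -0.087. For many of the gene lists below, the median after this correction stands beside the median without it.

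**Figure D3:**
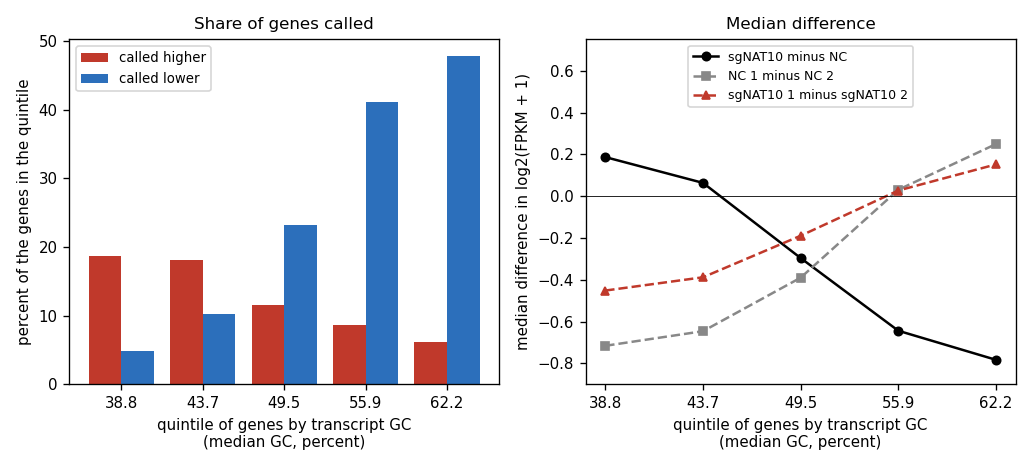
Left, the percent of genes called higher (red) and lower (blue) in each quintile of the tested genes by transcript GC content, labelled by the median GC content of the quintile. Right, the median difference in log2(FPKM + 1) in the same quintiles for sgNAT10 minus NC, which falls from 0.19 to -0.78, and for the pair of libraries within each label, which rises from -0.72 to 0.25 in NC and from -0.45 to 0.15 in sgNAT10.

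Promoters of genes that fell had a higher median GC content as well. RefSeq windows of 250 bases before the start to 50 after it (GRCh38.p14) matched 9361 of the 11419 genes by symbol, and the 250 bases before the start were searched on both strands. Their median GC content was 65.6% over all matched genes, 62.0% for the 853 genes that rose at least 2-fold, 68.4% for the 1874 that fell at least 2-fold and 65.2% for the 5874 not called. The GC box GGGCGG, the motif of the SP1 family, stood in 69.3% of all windows, 60.7% of those of rising genes and 75.1% of those of falling genes. The CCAAT box stood in 35.0%, 35.4% and 35.4%, the TATA box TATAAA in 5.01%, 7.03% and 4.64%, and the AP-1 site TGACTCA in 2.53%, 2.93% and 2.72%. In all 7 motifs were searched. The ETS site CCGGAAG stood in 16.6%, 17.5% and 12.4%, the CRE core TGACGT in 10.8%, 12.2% and 9.02%, and the E-box CACGTG in 8.96%, 7.86% and 8.91%. A match is a description of the letters, not a bound site. The windows of 6 genes among the largest changes are shown as examples of their regulatory sequence, the first 3 from genes that fell and the last 3 from genes that rose. Capitals mark every GC box, TATA box, AP-1 site and CCAAT box on either strand, and overlapping GC boxes run together.

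DDIT4 (chr10:72273674-72273923, plus strand): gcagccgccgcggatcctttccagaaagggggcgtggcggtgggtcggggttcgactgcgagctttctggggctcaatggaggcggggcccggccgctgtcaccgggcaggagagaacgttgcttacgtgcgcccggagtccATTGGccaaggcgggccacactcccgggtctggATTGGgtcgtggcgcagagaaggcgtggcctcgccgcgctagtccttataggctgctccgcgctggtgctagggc
CDKN1A (chr6:36678464-36678713, plus strand): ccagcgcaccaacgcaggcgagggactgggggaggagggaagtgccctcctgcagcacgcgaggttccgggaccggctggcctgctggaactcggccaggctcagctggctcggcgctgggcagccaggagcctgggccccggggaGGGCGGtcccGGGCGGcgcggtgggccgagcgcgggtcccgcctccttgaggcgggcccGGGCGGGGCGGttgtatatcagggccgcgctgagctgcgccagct
PLAU (chr10:73910360-73910609, plus strand): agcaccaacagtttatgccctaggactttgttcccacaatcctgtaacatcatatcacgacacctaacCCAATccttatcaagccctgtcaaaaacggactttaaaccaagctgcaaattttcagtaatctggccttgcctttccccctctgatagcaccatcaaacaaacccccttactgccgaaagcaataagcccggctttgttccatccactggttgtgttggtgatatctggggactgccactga
CAV1 (chr7:116524759-116525008, plus strand): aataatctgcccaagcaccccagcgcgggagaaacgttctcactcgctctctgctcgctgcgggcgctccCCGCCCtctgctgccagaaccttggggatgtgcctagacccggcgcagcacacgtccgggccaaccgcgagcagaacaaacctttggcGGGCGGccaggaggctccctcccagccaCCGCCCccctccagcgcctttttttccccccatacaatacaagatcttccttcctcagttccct
PRKAR2A (chr3:48847875-48848124, minus strand): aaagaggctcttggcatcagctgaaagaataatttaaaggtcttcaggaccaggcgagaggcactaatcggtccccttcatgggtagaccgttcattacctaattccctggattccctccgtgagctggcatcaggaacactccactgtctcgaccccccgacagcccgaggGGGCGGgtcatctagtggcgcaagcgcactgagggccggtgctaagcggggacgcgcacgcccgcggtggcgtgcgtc
ZCRB1 (chr12:42326095-42326344, minus strand): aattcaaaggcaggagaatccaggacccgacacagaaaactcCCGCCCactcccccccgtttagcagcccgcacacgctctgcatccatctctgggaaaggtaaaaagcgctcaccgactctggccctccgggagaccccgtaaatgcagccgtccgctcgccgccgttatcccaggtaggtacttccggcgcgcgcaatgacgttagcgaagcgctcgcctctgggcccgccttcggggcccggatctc

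The windows of DDIT4, an inhibitor of mTORC1, and CDKN1A, the cell cycle inhibitor p21, differ in these letters, and both genes fell (log2 -4.50 and -3.83): DDIT4 has 2 CCAAT boxes and no GC box, and CDKN1A has 4 GC boxes and no CCAAT box. No TATA box or AP-1 site of this spelling stood in any of the 6 windows. The window of PLAU, urokinase, has the lowest GC content of the 6 (46.8%), with 1 CCAAT box and no GC box, and that of CDKN1A the highest (76.4%). Of the genes that rose, CAV1 (caveolin-1) has 3 GC boxes, and PRKAR2A (a protein kinase A subunit) and ZCRB1 (a splicing protein) have 1 each. The counts of the motifs marked in capitals did not separate the 3 genes that fell from the 3 that rose, which are too few to compare.

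Many genes of central carbon metabolism fell in sgNAT10. In the list of glycolysis and of glucose and lactate transport, 12 of 24 tested members fell and the others were not called; the median was -0.91, and -0.69 after the length and GC correction. ALDOC, an aldolase, stood at 24.52 and 21.31 FPKM in NC and at 4.04 and 3.93 FPKM in sgNAT10 (log2 -2.26, SE 0.31, adjusted p = 0.0017). SLC2A1, the glucose transporter GLUT1, stood at 69.63 and 67.24 FPKM in NC and at 16.60 and 16.31 FPKM in sgNAT10 (log2 -1.99, SE 0.25, adjusted p = 0.0013). PFKFB3, which makes the activator of phosphofructokinase, fell by 1.91 on the log2 scale. Leaving out sgNAT10 replicate 1 kept 7 of these 12 calls, and leaving out sgNAT10 replicate 2 kept 6. The most abundant members were not called: GAPDH stood at 0.49, ENO1 at -0.75 and PKM at -0.42. GAPDH was called lower after quantile normalization (-0.45) and higher after the length and GC correction (0.98), so its direction depended on the scaling; ENO1 was called lower under quantile normalization and with libraries rescaled to a common sum, and PKM under quantile normalization. In the pentose phosphate pathway 3 of 9 members fell, and median-ratio scaling kept 1 of these calls, as did leaving out sgNAT10 replicate 2.

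The tricarboxylic acid cycle, which oxidises acetyl-coenzyme A in the mitochondrion, had one of the lowest medians of the lists, -1.07 (-0.93 after the correction), with 11 of 21 members lower. SDHB, the iron-sulfur subunit of succinate dehydrogenase, stood at 93.85 and 118 FPKM in NC and at 17.66 and 21.68 FPKM in sgNAT10 (log2 -2.37, SE 0.26, adjusted p = 0.0010). The mitochondrial malate dehydrogenase MDH2 stood at 285 and 272 FPKM in NC and at 60.67 and 55.36 FPKM in sgNAT10 (log2 -2.24, SE 0.23, adjusted p = 0.00098), and its cytosolic relative MDH1 fell as well (log2 -1.98). When sgNAT10 replicate 1 was left out 9 of the 11 calls held, and when sgNAT10 replicate 2 was left out 11. Subunits of the ATP synthase went both ways: of 15 tested 3 rose and 5 fell, with ATP5PB of the peripheral stalk lowest (log2 -2.34). A total of 1 of the 8 calls held without sgNAT10 replicate 1, and 6 without sgNAT10 replicate 2.

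Some genes of protein import into mitochondria rose. Of 22 tested members 7 rose and the others were not called (median 0.37; 0.42 after the correction). TIMM8B, a small chaperone of the intermembrane space, stood at 64.16 and 45.03 FPKM in NC and at 271 and 350.1 FPKM in sgNAT10 (log2 2.50, SE 0.27, adjusted p = 0.0010), and its relative TIMM13 rose by 1.27. These 7 calls numbered 5 without sgNAT10 replicate 1 and 2 without sgNAT10 replicate 2. With libraries rescaled to a common sum 4 members rose and 2 fell (median 0.05).

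Lysosomal genes had the second lowest median of the lists shown in the plot of list medians. Of 32 tested enzymes and membrane proteins 18 fell and 1 rose (median -1.20; -0.85 after the correction). PSAP, the precursor of the saposins that help to break down sphingolipids, stood at 248 and 265 FPKM in NC and at 49.85 and 43.30 FPKM in sgNAT10 (log2 -2.44, SE 0.23, adjusted p = 0.00095). The beta-galactosidase GLB1 stood at 26.71 and 26.51 FPKM in NC and at 4.07 and 5.72 FPKM in sgNAT10 (log2 -2.24, SE 0.31, adjusted p = 0.0018), and the cholesterol carrier NPC2 at 75.27 and 89.53 FPKM and 17.69 and 18.56 FPKM (log2 -2.12, SE 0.25, adjusted p = 0.0012). GRN, progranulin, fell by 1.93 on the log2 scale. CD63, a tetraspanin of late endosomes, was the member that rose (log2 1.17), a call lost without either sgNAT10 library. In the fits without sgNAT10 replicate 1 and without replicate 2, 13 and 15 of the 19 calls held. The proton pump that acidifies the lysosome had 4 of 16 subunits lower and 1 higher, with ATP6V0D1 at -1.26 and ATP6V1D at 1.73. Of 28 autophagy genes 10 fell, among them GABARAPL1 (log2 -1.57), and 2 rose, among them ATG12 (log2 2.02), both ubiquitin-like proteins of the autophagosome. Of the 12 calls, 4 held without sgNAT10 replicate 1 and 4 without sgNAT10 replicate 2. CD68, counted above with the blood markers, is itself a lysosomal glycoprotein and fell by 1.24 on the log2 scale, a call lost under median-ratio scaling.

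**Figure D4:**
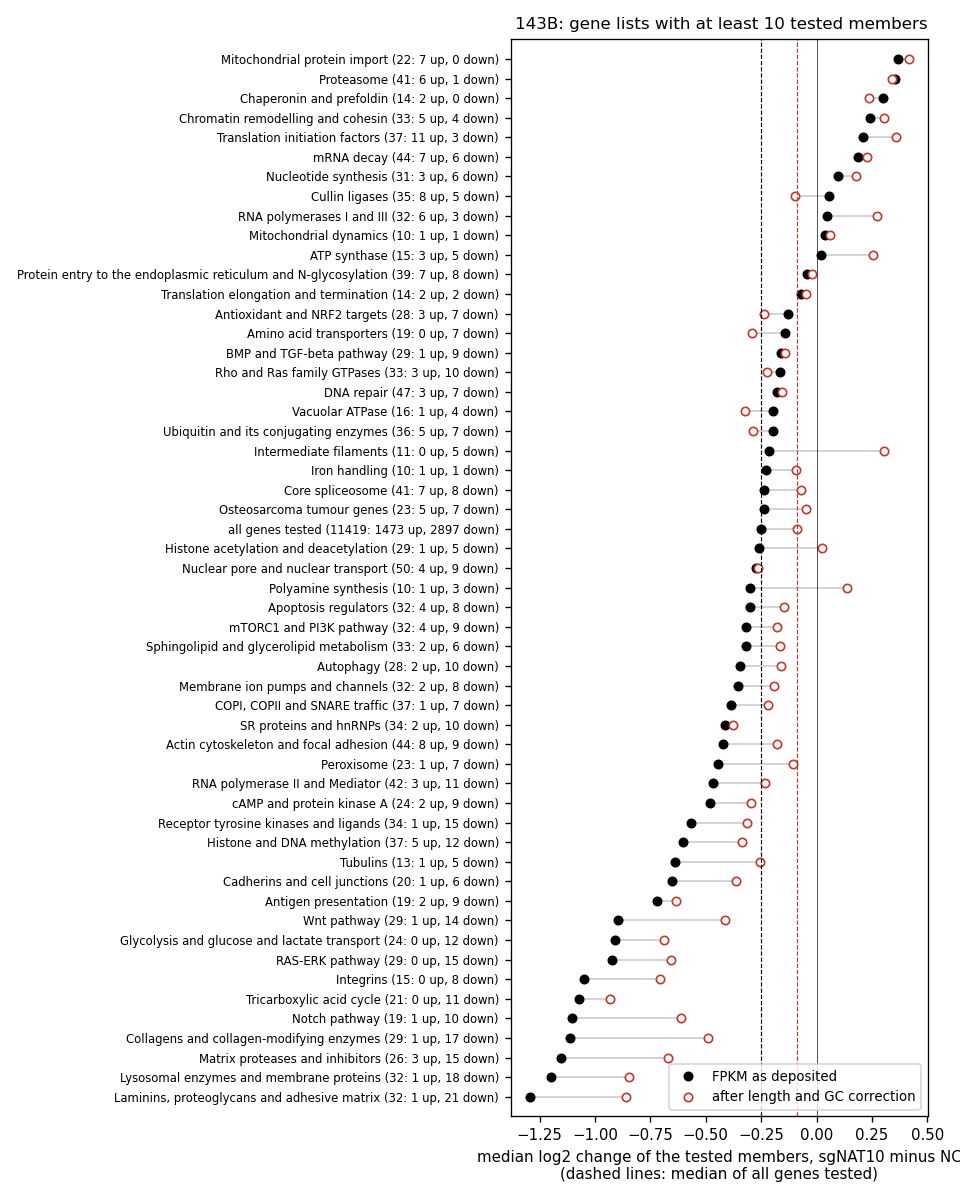
Median log2 change of the tested members of each gene list with at least 10 of them (sgNAT10 minus NC in 143B), from FPKM as deposited (black) and after length and GC correction (open red), with the number tested, called higher (up) and called lower (down) beside each name. The dashed lines mark the medians of all genes, -0.25 and -0.087; the lists of laminins and adhesive matrix (-1.30) and of lysosomal proteins (-1.20) lie lowest, and mitochondrial protein import (0.37) highest.

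The lowest median of these lists, -1.30, belonged to laminins, proteoglycans and adhesive matrix proteins, of which 21 of 32 fell and 1 rose (-0.86 after the correction). HSPG2, the basement membrane proteoglycan perlecan, was at 7.40 and 8.33 FPKM in NC and listed at 0.17 and 0.10 FPKM in sgNAT10 (log2 -2.96). It passed the filter only through NC, so these values are a description with no test. The laminin chain LAMA5 fell by 2.56 and the chain LAMB1 by 2.18 on the log2 scale, whereas LAMA4 went from 2.02 and 2.39 FPKM to 10.43 and 12.24 FPKM (log2 1.94, SE 0.34, adjusted p = 0.0035). Laminin chains thus moved in both directions, with LAMA4 the member that rose. Leaving out sgNAT10 replicate 1 kept 15 of these 22 calls, and leaving out sgNAT10 replicate 2 kept 16. Of 29 collagens and collagen-modifying enzymes 17 were called lower and 1 higher (median -1.11; -0.49 after the correction). Among them were LOXL2, which cross-links collagen (log2 -2.41), and the collagen chains COL18A1 (log2 -2.25) and COL13A1 (log2 -2.25). When sgNAT10 replicate 1 was left out 9 of the 18 calls held, and when sgNAT10 replicate 2 was left out 10.

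Integrins, the receptors for the matrix, fell or were not called. Of 15 tested genes of integrins and proteins that bind them 8 fell (median -1.05; -0.71 after the correction). One of the falls was ITGB1BP1, a protein that binds integrins, a call lost without sgNAT10 replicate 1. ITGB5, which pairs with the alpha-V subunit to bind vitronectin, stood at 57.74 and 66.68 FPKM in NC and at 6.75 and 6.13 FPKM in sgNAT10 (log2 -3.08, SE 0.27, adjusted p = 0.00089). ITGB3, the other vitronectin receptor subunit (log2 -1.82), and ITGA5 of the fibronectin receptor (log2 -1.76) also fell. A total of 5 of the 8 calls held without sgNAT10 replicate 1, and 5 without sgNAT10 replicate 2. Among 20 cell junction genes 6 were lower and 1 higher, and JUP, plakoglobin, fell by 2.45 on the log2 scale. Of 26 matrix proteases and inhibitors 15 fell and 3 rose. The falls included MMP1, interstitial collagenase, from 465 and 824 FPKM in NC to 124 and 240.0 FPKM in sgNAT10 (log2 -1.84, SE 0.38, adjusted p = 0.0069), and ADAM19 (log2 -2.51). Both activating proteases and inhibitors stood on this list, and its rises were led by RECK, a membrane inhibitor of matrix metalloproteinases (log2 1.61, lost without sgNAT10 replicate 2). These 18 calls numbered 11 without sgNAT10 replicate 1 and 10 without sgNAT10 replicate 2.

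Called genes of growth factor signalling were mostly lower. Of 34 tyrosine kinase receptors and ligands 15 fell and 1 rose (median -0.57; -0.31 after the correction). The collagen receptor DDR1 stood at 17.32 and 15.71 FPKM in NC and at 2.33 and 2.25 FPKM in sgNAT10 (log2 -2.41, SE 0.33, adjusted p = 0.0017). The fibroblast growth factor receptors FGFR1 (log2 -1.87) and FGFR4 (log2 -1.77) fell, while the KIT ligand KITLG was the member that rose (log2 1.07, lost without sgNAT10 replicate 2 and with libraries rescaled to a common sum). In the fits without sgNAT10 replicate 1 and without replicate 2, 9 and 9 of the 16 calls held. In the RAS-ERK pathway 15 of 29 members fell and the others were not called (median -0.93; -0.66 after the correction). SPRY4, a feedback inhibitor of the pathway, stood at 18.80 and 33.84 FPKM in NC and at 2.94 and 3.51 FPKM in sgNAT10 (log2 -2.64, SE 0.37, adjusted p = 0.0019). PHLDA1, which ERK signalling induces, fell by 2.44 on the log2 scale. Several of these members are inhibitors, so the falls on the list were not all of activating proteins. Of the 15 calls, 9 held without sgNAT10 replicate 1 and 8 without sgNAT10 replicate 2.

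Called genes of the Wnt and Notch pathways, which act in development, were mostly lower as well. Of 29 Wnt pathway genes 14 fell and 1 rose (median -0.90; -0.41 after the correction), among them the co-receptor LRP5, from 55.83 and 49.04 FPKM in NC to 8.50 and 6.08 FPKM in sgNAT10 (log2 -2.70, SE 0.29, adjusted p = 0.00099). The secreted protein DKK3 (log2 -2.35), the transcription factor TCF7L1 (log2 -1.99) and the ligand WNT7B (log2 -1.35) fell as well. Leaving out sgNAT10 replicate 1 kept 6 of these 15 calls, and leaving out sgNAT10 replicate 2 kept 7. Of 19 Notch pathway genes 10 fell and 1 rose (median -1.10; -0.61 after the correction). The receptor NOTCH3 (log2 -1.83), the ligand DLL1 (log2 -1.66) and the target gene HES4 (log2 -1.37) were lower. RBPJ, the DNA-binding protein through which Notch receptors act, was the member that rose, from 2.79 and 4.65 FPKM in NC to 18.82 and 25.68 FPKM in sgNAT10 (log2 2.31, SE 0.35, adjusted p = 0.0025). When sgNAT10 replicate 1 was left out 7 of the 11 calls held, and when sgNAT10 replicate 2 was left out 5. In the BMP and TGF-beta pathway 9 of 29 fell and 1 rose. TGIF1, a repressor of SMAD proteins, fell by 2.07 on the log2 scale, and the activin antagonist FST, follistatin, rose by 2.21. A total of 3 of the 10 calls held without sgNAT10 replicate 1, and 5 without sgNAT10 replicate 2.

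The cyclic AMP pathway had 9 of 24 members lower and 2 higher. Its enzymes and subunits split: the adenylyl cyclase ADCY3 (log2 -2.73), the catalytic kinase subunit PRKACA (log2 -1.86) and the kinase inhibitor PKIG (log2 -1.85) fell, while the regulatory subunit PRKAR2A rose (log2 3.32). PRKACA stood at 39.06 and 43.73 FPKM in NC and at 11.77 and 9.60 FPKM in sgNAT10, and PRKAR2A at 8.80 and 11.88 FPKM and 105 and 117 FPKM. These 11 calls numbered 5 without sgNAT10 replicate 1 and 5 without sgNAT10 replicate 2. Of 32 genes of the mTORC1 and PI3K pathway 9 fell and 4 rose, with the kinase AKT2 at -1.77 and the PI3K regulatory subunit PIK3R2 at -1.61. In the fits without sgNAT10 replicate 1 and without replicate 2, 8 and 5 of the 13 calls held. Among small GTPases RHOB stood at 30.00 and 38.03 FPKM in NC and at 3.57 and 4.52 FPKM in sgNAT10 (log2 -2.79, SE 0.31, adjusted p = 0.0011) and RAB31 rose by 1.84. In all 33 GTPases were tested, of which 10 fell and 3 rose, and 32 pumps and channels, of which 8 fell and 2 rose. Over all genes 25.4% were called lower and 12.9% higher. Without the first sgNAT10 library, 12 of the 13 calls of the first list and 5 of the 10 of the second held, and without the second, 10 and 4.

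Cytoskeletal genes were divided. Of 44 genes of the actin cytoskeleton and focal adhesions 8 rose and 9 fell, beside 12.9% higher and 25.4% lower over all genes. Their median was -0.42, and -0.18 after the correction. Tropomyosin TPM1 stood at 36.50 and 63.76 FPKM in NC and at 116 and 172 FPKM in sgNAT10 (log2 1.53, SE 0.33, adjusted p = 0.0073), and vinculin, VCL, rose by 1.45, a call lost with libraries rescaled to a common sum. ZYX, zyxin, a partner of vinculin at focal adhesions, went the other way, from 265 and 250.4 FPKM in NC to 108 and 68.09 FPKM in sgNAT10 (log2 -1.58, SE 0.28, adjusted p = 0.0037). Of the 17 calls, 10 held without sgNAT10 replicate 1 and 7 without sgNAT10 replicate 2. Under median-ratio scaling 8 of these genes rose and 3 fell. Among 13 tubulins 5 fell and 1 rose, with TUBB2B at -2.11 and TUBB6 at -1.47; tubulin genes are near-identical to each other, so reads can be split between them. Both B-type nuclear lamins fell: LMNB1 stood at 17.03 and 36.39 FPKM in NC and at 3.65 and 4.50 FPKM in sgNAT10 (log2 -2.36, SE 0.40, adjusted p = 0.0032), and LMNB2 changed by -1.61. Of 7 tested caveola genes 2 rose and 1 fell (median 0.11). CAV2 rose with its partner CAV1, from 2.65 and 5.48 FPKM in NC to 18.00 and 20.16 FPKM in sgNAT10 (log2 2.04, SE 0.37, adjusted p = 0.0042). The more abundant CAVIN1 (log2 -0.38) and CAVIN3 (log2 0.11) were not called.

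In the nucleus, subunits of the transcription machinery did not all move together. Of 42 genes of RNA polymerase II and Mediator 11 fell and 3 rose (median -0.47; -0.23 after the correction). POLR2A, the catalytic subunit of the polymerase, stood at 35.42 and 45.21 FPKM in NC and at 7.20 and 7.55 FPKM in sgNAT10 (log2 -2.29, SE 0.28, adjusted p = 0.0014). The small subunits POLR2I (log2 1.29), POLR2J (log2 1.16) and POLR2F (log2 1.06) were the 3 that rose. The Mediator subunits MED30 (log2 -2.78) and MED24 (log2 -2.52) fell. Leaving out sgNAT10 replicate 1 kept 9 of these 14 calls, and leaving out sgNAT10 replicate 2 kept 8. Of 32 genes of RNA polymerases I and III 6 rose and 3 fell, among the rises the polymerase I subunits TWISTNB (log2 2.27) and CD3EAP (log2 1.65). When sgNAT10 replicate 1 was left out 3 of the 9 calls held, and when sgNAT10 replicate 2 was left out 3.

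Of 37 genes of histone and DNA methylation, which include methyltransferases, demethylases and subunits of their complexes, 12 fell and 5 rose, beside 25.4% and 12.9% of all genes (median -0.60; -0.34 after the correction). CARM1, an arginine methyltransferase of histone H3, stood at 78.78 and 76.11 FPKM in NC and at 14.22 and 9.28 FPKM in sgNAT10 (log2 -2.65, SE 0.28, adjusted p = 0.00099), and DOT1L, which methylates the histone H3 core, fell by 1.90 on the log2 scale. SUZ12, a core subunit of the Polycomb repressive complex, rose from 2.25 and 4.23 FPKM in NC to 16.18 and 20.17 FPKM in sgNAT10 (log2 2.21, SE 0.37, adjusted p = 0.0031). Its partner EED rose by 1.79, a call lost without sgNAT10 replicate 2. A total of 8 of the 17 calls held without sgNAT10 replicate 1, and 5 without sgNAT10 replicate 2. Of 33 remodelling and cohesin genes 5 rose and 4 fell, with the remodeller ATRX, often altered in osteosarcoma, at 2.04 and the histone chaperone DAXX, its partner, at -1.26. ATRX stood at 1.27 and 2.83 FPKM in NC and at 11.23 and 11.05 FPKM in sgNAT10. These 9 calls numbered 4 without sgNAT10 replicate 1 and 5 without sgNAT10 replicate 2.

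RNA processing genes had no common direction. Among SR proteins and hnRNPs, which guide splice site choice, 10 of 34 fell and 2 rose, with SRSF7 at -1.90 and SRSF11 at 1.69. In the fits without sgNAT10 replicate 1 and without replicate 2, 9 and 10 of the 12 calls held. Of 41 core spliceosome genes 8 fell and 7 rose. SNRPB2, a protein of the U2 particle, stood at 26.62 and 43.07 FPKM in NC and at 158 and 177 FPKM in sgNAT10 (log2 2.27, SE 0.28, adjusted p = 0.0014), and SF3A1, also of that particle, changed by -1.53. Of the 15 calls, 10 held without sgNAT10 replicate 1 and 6 without sgNAT10 replicate 2. Of 50 nuclear pore and transport genes 9 fell and 4 rose, smaller shares than the 25.4% and 12.9% of all genes. NXF1, the main export receptor of messenger RNA, went from 14.81 and 21.50 FPKM in NC to 4.30 and 4.87 FPKM in sgNAT10 (log2 -1.76, SE 0.33, adjusted p = 0.0049). Leaving out sgNAT10 replicate 1 kept 7 of these 13 calls, and leaving out sgNAT10 replicate 2 kept 5. In messenger RNA decay 7 of 44 genes rose, led by DCP1A, and 6 fell, among them ZFP36, which binds AU-rich elements (log2 -2.20). When sgNAT10 replicate 1 was left out 6 of the 13 calls held, and when sgNAT10 replicate 2 was left out 4. With NC replicate 1 left out 7 held.

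Translation initiation factors were among the few groups with more rises than falls, 11 against 3 of 37 (median 0.21; 0.36 after the correction). EIF2S1, the subunit of eIF2 that stress kinases phosphorylate, stood at 22.02 and 29.29 FPKM in NC and at 85.67 and 122 FPKM in sgNAT10 (log2 1.97, SE 0.28, adjusted p = 0.0020). EIF2S2 of the same complex rose by 1.98, EIF3J by 2.01 and EIF5 by 1.94, while EIF3H fell by 1.54 on the log2 scale. A total of 10 of the 14 calls held without sgNAT10 replicate 1, and 9 without sgNAT10 replicate 2.

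Protein turnover genes were mixed. Of 41 proteasome genes 6 rose and 1 fell from the FPKM as deposited (median 0.36, and 0.34 after the correction). That balance depended on the scaling: with libraries rescaled to a common sum 4 rose and 5 fell (median 0.025). Within the alpha ring of the core particle, PSMA4 stood at 20.66 and 45.99 FPKM in NC and at 119.5 and 156 FPKM in sgNAT10 (log2 2.11, SE 0.36, adjusted p = 0.0036), and PSMA6 rose by 2.08. PSMA5, another subunit of the same ring, fell from 31.00 and 45.49 FPKM in NC to 8.24 and 13.62 FPKM in sgNAT10 (log2 -1.73, SE 0.33, adjusted p = 0.0051). These 7 calls numbered 5 without sgNAT10 replicate 1 and 5 without sgNAT10 replicate 2. Of 36 ubiquitin genes and conjugating enzymes 5 rose and 7 fell. Of 35 cullin ligase genes 8 rose and 5 fell, and the substrate receptor of hypoxia-inducible factor, VHL, rose by 1.54. Without the first sgNAT10 library, 7 of the 12 calls of the first list and 10 of the 13 of the second held, and without the second, 7 and 5. In protein entry to the endoplasmic reticulum and N-glycosylation 7 of 39 rose, led by the translocon protein SSR4 (log2 1.84), and 8 fell, among them GANAB, which trims glucose from the glycan (log2 -1.86). In the fits without sgNAT10 replicate 1 and without replicate 2, 9 and 9 of the 15 calls held.

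Regulators of cell death and tumour genes also went both ways. Of 32 apoptosis regulators 8 fell and 4 rose, shares close to the 25.4% lower and 12.9% higher over all genes. XIAP, a caspase inhibitor, stood at 2.26 and 3.03 FPKM in NC and at 17.50 and 20.90 FPKM in sgNAT10 (log2 2.47, SE 0.33, adjusted p = 0.0017), and BIRC2 of the same family rose by 2.14, while the pro-death protein BMF fell by 1.81 on the log2 scale. Called members of opposite roles moved too: with all 4 libraries the pro-survival gene BCL2L1 was called lower (log2 -0.90) and the pro-death gene DIABLO higher (log2 0.72). Whether these 2 calls held with a library left out is not given here. Of the 12 calls, 4 held without sgNAT10 replicate 1 and 3 without sgNAT10 replicate 2. Of 23 genes known from osteosarcoma 5 rose and 7 fell, with MDM4, an inhibitor of p53, from 1.97 and 2.05 FPKM in NC to 12.21 and 16.68 FPKM in sgNAT10 (log2 2.34, SE 0.34, adjusted p = 0.0022). Leaving out sgNAT10 replicate 1 kept 7 of these 12 calls, and leaving out sgNAT10 replicate 2 kept 5. In nucleotide synthesis 3 of 31 rose, with NME1, a nucleoside diphosphate kinase, at 1.97, and 6 fell, with thymidylate synthase, TYMS, at -1.82. A separate entry for the joined transcript, NME1.NME2, changed by -3.67, from 21.87 and 31.90 FPKM in NC to 1.54 and 0.83 FPKM in sgNAT10. It shares sequence with NME1, so reads can be split between the entries. In antigen presentation 9 of 19 fell and 2 rose, with the peptide transporter TAP2 at -1.87. Of the 6 HLA genes on this list 4 fell, HLA.C among them (log2 -1.87), while HLA.A (log2 -0.70) and HLA.E (log2 -0.22) were not called, and all share sequence with each other. Without the first sgNAT10 library, 6 of the 9 calls of the first list and 8 of the 11 of the second held, and without the second, 6 and 6.

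Families of genes that share a symbol stem, with at least 8 tested members, gave a further view. The lowest median belonged to the homeobox cluster HOXB (-1.67), in which 5 of 9 members fell: HOXB8, HOXB2, HOXB3 (log2 -2.19), HOXB6 (log2 -2.07) and HOXB9 (log2 -1.67). HOXB4 (log2 0.04) and HOXB7 (log2 0.10), which lie between these in the cluster, were not called. Semaphorins, guidance ligands, came next, with 7 of 10 lower and 1 higher (median -1.36), and SEMA4B was lowest, from 14.43 and 16.67 FPKM in NC to 1.25 and 1.04 FPKM in sgNAT10 (log2 -2.95, SE 0.33, adjusted p = 0.0011). Of 8 NKX homeobox genes 7 fell (median -1.34). Among the highest medians were the AT-rich interaction domain genes ARID (0.99, with 4 of 8 higher and 1 lower) and the NDUFA subunits of respiratory complex I (0.70, with 7 of 13 higher). Of 259 zinc finger genes of the ZNF stem 70 rose and 35 fell (median 0.25), beside 12.9% higher and 25.4% lower over all genes. ZNF281 stood at 2.29 and 4.72 FPKM in NC and at 23.42 and 26.19 FPKM in sgNAT10 (log2 2.57, SE 0.36, adjusted p = 0.0019). Family counts and medians were not repeated with the length and GC correction or with a library left out. The members of these families were picked after their values were seen, and the HOXB genes beyond HOXB8 and HOXB2, SEMA4B and ZNF281 are among them.

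Most of these changes were not seen in HOS under the same labels. Of the 3426 genes called at least 2-fold in 143B, 3066 were tested in both lines. The change differed between the lines for 2783 of them, against 5235 of all 10655 genes tested in both (49.1%). The 3066 were chosen by their change in 143B, which is part of that difference. A higher share among them was therefore built in and is no test. HOS had calls for 68.5% of all its tested genes. These calls were not counted by direction, so the HOS counts by direction that follow have no share of all genes beside them. Of the 2171 that fell in 143B, 1384 were called higher in HOS and 240 lower, with a median change in HOS of 0.41, where the median of all genes was 0.19. Of the 895 that rose in 143B, 278 were called higher in HOS and 321 lower, with a median change in HOS of -0.05. NAT10 RNA itself was not lower in the HOS libraries labelled sgNAT10: its change there was 0.35, and the difference between the lines was -1.41 (adjusted p = 0.0036). Every HOS direction is therefore one between libraries as labelled. For CRABP1 the change was -4.29 in 143B and 0.28 in HOS, and for LEPR 2.92 and 0.13. The lysosomal PSAP changed by -2.44 in 143B and by 0.49 in HOS, the difference being -2.93 (adjusted p = 6.6e-05), and the cycle enzyme SDHB by -2.37 and -0.58 (difference -1.79, adjusted p = 0.00063). The 2 lines were fitted from separate tables, and their differences were taken within a table first.

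**Figure D5:**
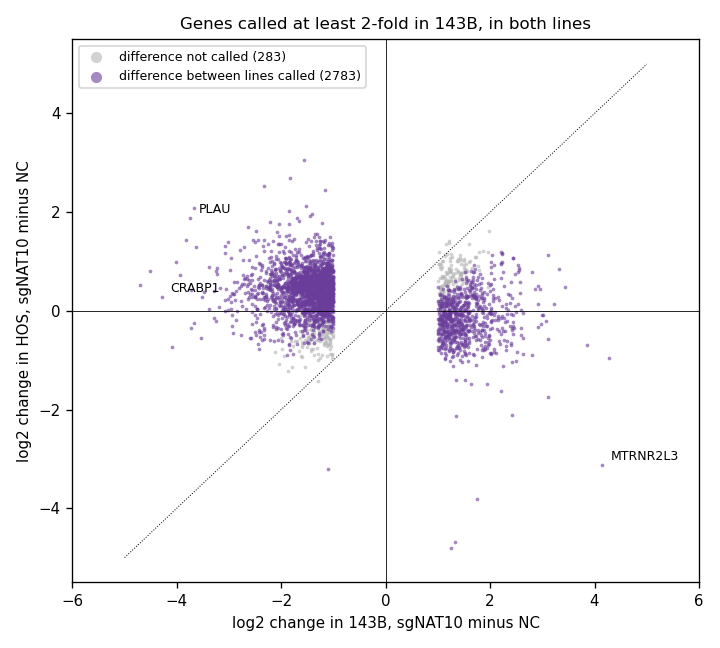
Log2 change in HOS against log2 change in 143B (sgNAT10 minus NC in each) for the 3066 genes called at least 2-fold in 143B and tested in both lines; the dotted line marks equal change. Purple points are the 2783 genes whose change differed between the lines past the threshold, and the gap in the middle is the 2-fold limit on the horizontal axis.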

How the data were processed

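Polyadenylated RNA of 143B cells was sequenced in 2 NC and 2 sgNAT10 libraries. The authors deposited FPKM values in a table for each cell line, and per the submitters' processing notes Bowtie2, RSEM, DESeq2 and the build GRCh38 were used, without versions or roles; the annotation version was not given in the sources used here. Since FPKM are not counts, no count model was used, and read depth and counting error are unknown. The tables list almost only protein-coding genes, and each line has a table of its own.

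Values were put on the scale log2(FPKM + 1) from the deposited FPKM. Genes reaching 1 FPKM in 2 or more of the 4 libraries entered limma (version 3.58.1, run in R 4.3.3; intensity trend, two-sided, Benjamini-Hochberg over all genes tested, threshold 0.05), which was tested on simulated data. Fold changes on this scale understate those of low genes. The smallest p of an exact permutation test would be 0.33 with 2 libraries a label, so calls rest on the spread pooled across genes. The difference between lines came from a joint fit of all 8 libraries over 10655 genes. GENCODE models on GRCh38, matched by symbol for 98.4% of the listed genes, gave transcript length and GC content, which a spline with 4 degrees of freedom removed from each library in an alternative added after seeing the data. Alternatives were the pseudocount, the filter, the scaling, the moderation, a replicate block and leaving out each library.

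The genes and gene lists were chosen with earlier results of these data known, so lists are given by counts and medians and carry no test. The rule names NAT10, the 15 largest rises and 15 largest falls and the 12 largest gains and losses in FPKM among called genes with a mean of at least 10 FPKM, up to 4 rises and 4 falls and the 3 most abundant members of each list, the 5 genes with the largest differences between lines each way, and the 8 highest and 8 lowest symbol families. The largest rises, falls, gains and losses also had to show no overlap between the labels. Among all genes the rule names, those called in each fit with a library left out were preferred. Genes crossing between 10 and 1 FPKM, members of symbol families and HLA.E were picked once values were known. Genes with near-identical copies or entries that share sequence (ribosomal proteins, tubulins, HLA and MTRNR2L genes, NME1) are uncertain. Many genes that the rule names are not reported here.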

Additional observations from a re-analysis of the deposited data

Results flagged for a closer look

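The change under the sgNAT10 label differed between 143B and HOS for several named genes, each given as the change in 143B minus that in HOS on the log2 scale, from limma's joint fit over all 8 libraries with Benjamini-Hochberg adjusted p. For NAT10 it was -1.41 (SE 0.29, adjusted p = 0.0036). For PLAU it was -5.63, for DDIT4 -5.31, for CDKN1A -5.26, for PLAT -5.23 and for BHLHE40 -5.01, genes that fell in 143B and whose change in HOS lay between 0.52 and 1.89. For the humanin-like genes MTRNR2L8, MTRNR2L1, MTRNR2L2, MTRNR2L6 and MTRNR2L9 it was 6.05, 6.02, 5.91, 5.57 and 4.64. Their change was 0.31 to 1.75 in 143B and -5.08 to -3.82 in HOS, and MTRNR2L2 and MTRNR2L9 were not called in 143B. These genes resemble mitochondrial ribosomal RNA and each other, so their reads cannot be assigned with certainty. NAT10 RNA was not lower in the HOS libraries labelled sgNAT10. Groups of 2 libraries were too small for a search for outlying libraries.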

How the results depend on the processing

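Of 4370 genes called, the count stayed within 1.5 times under every other pseudocount, filter, scaling and moderation tried and after the length and GC correction, and moved to 7652 with the replicate block. Leaving out 1 library at a time gave 1995 to 5067 calls, the lowest without sgNAT10 replicate 2 and 2360 without sgNAT10 replicate 1, fits in which the lone sgNAT10 library was assumed to vary like the NC libraries. Same-numbered libraries deviated together (r = 0.605 over 11419 genes), but the labels give no shared origin and there are only 2 pairs, so the numbers were not taken as pairs and whether they pair the libraries is unknown. NAT10 was not past the threshold under median-ratio scaling (-0.80) or in 3 of the fits with a library left out, where its change ran from -1.21 to -0.91. Beside NAT10, of 143 named genes that were called, 9 were lost without sgNAT10 replicate 2 and 5 without sgNAT10 replicate 1, 3 under rescaling to a common sum and 3 under median-ratio scaling, all in the same direction; the cause was not tested. GAPDH, not called from the FPKM as deposited, was called lower after quantile normalization (-0.45). Gene lists with more falls than rises, the small marker lists included, numbered 47, and between 37 and 56 under the alternatives. Falls outnumbered rises over all genes as well (2897 against 1473), so this number is no trait of the lists. The difference between lines was called for 3517 to 7358 genes.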
